A study of Mus musculus with 8 samples.

Results

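Voltage-gated sodium channel subunits were examined in the hippocampus of old mice with a transgene for the Swedish form of human amyloid precursor protein. The 7 genes Scn1a, Scn2a, Scn3a, Scn8a, Scn2b, Scn3b and Scn4b were taken by symbol from the platform's probe table, out of 19505 named genes, and each was read by 1 probe set. The samples were hippocampi of 4 mice labelled as having impaired memory and 4 labelled as having intact memory, all 18 to 20 months old, of the line B6.Cg-Tg(APPswe)E1-2Dbo/J, and taken after the Morris water maze, a test of spatial learning. Both groups carry the transgene, and mice without it were not analysed here. The sources used here give neither the promoter of the transgene, nor the sex of the mice, nor the score that separated impaired from intact memory. Each mouse gave 1 array, and values are RMA (robust multi-array average) expression in log2 units, where a step of 1 is a doubling. Nothing in the labels names a pool, so each array was treated as 1 animal. All 7 genes passed the filter on low values that left 14628 genes, and all 7 lay above 7.92 on every array, the level below which 95% of the background probe sets for introns fell.

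The voltage-gated sodium channel starts the action potential. Its large alpha subunit forms the pore, senses the membrane voltage and closes the pore again within milliseconds, and its beta subunits are single-pass membrane proteins with an immunoglobulin-like domain that set gating, surface level and cell adhesion. In the hippocampus Scn1a is the main alpha subunit of fast-spiking interneurons, while Scn2a and Scn8a serve the axon initial segment of excitatory neurons. The comparison asked whether the RNA level of these subunits differs with memory status among transgenic mice of the same age.

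No subunit differed between mice with impaired and mice with intact memory by more than the spread between mice. The alpha subunit genes Scn1a, Scn2a and Scn3a had slightly higher means in the impaired group and Scn8a a slightly lower one, with differences of 0.10, 0.049, 0.020 and -0.014 on the log2 scale. All 3 beta subunit genes had lower means in the impaired group, with -0.16 for Scn3b, -0.030 for Scn4b and -0.014 for Scn2b. Of the 7 genes, 0 passed an adjusted p of 0.05 (limma, Benjamini-Hochberg over all genes), as did 0.0% of the genes tested, and 0 had an unadjusted p under 0.05, against 4.68% of the genes tested (2.17% higher and 2.52% lower in impaired mice). The groups overlapped for all 7, while they did not overlap for 2.58% of the genes tested. The median difference of the 7 genes was -0.014, against -0.0083 over all genes, and 3 of the 7 lay above 0, against 47.1% of all genes.

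**Figure D1:**
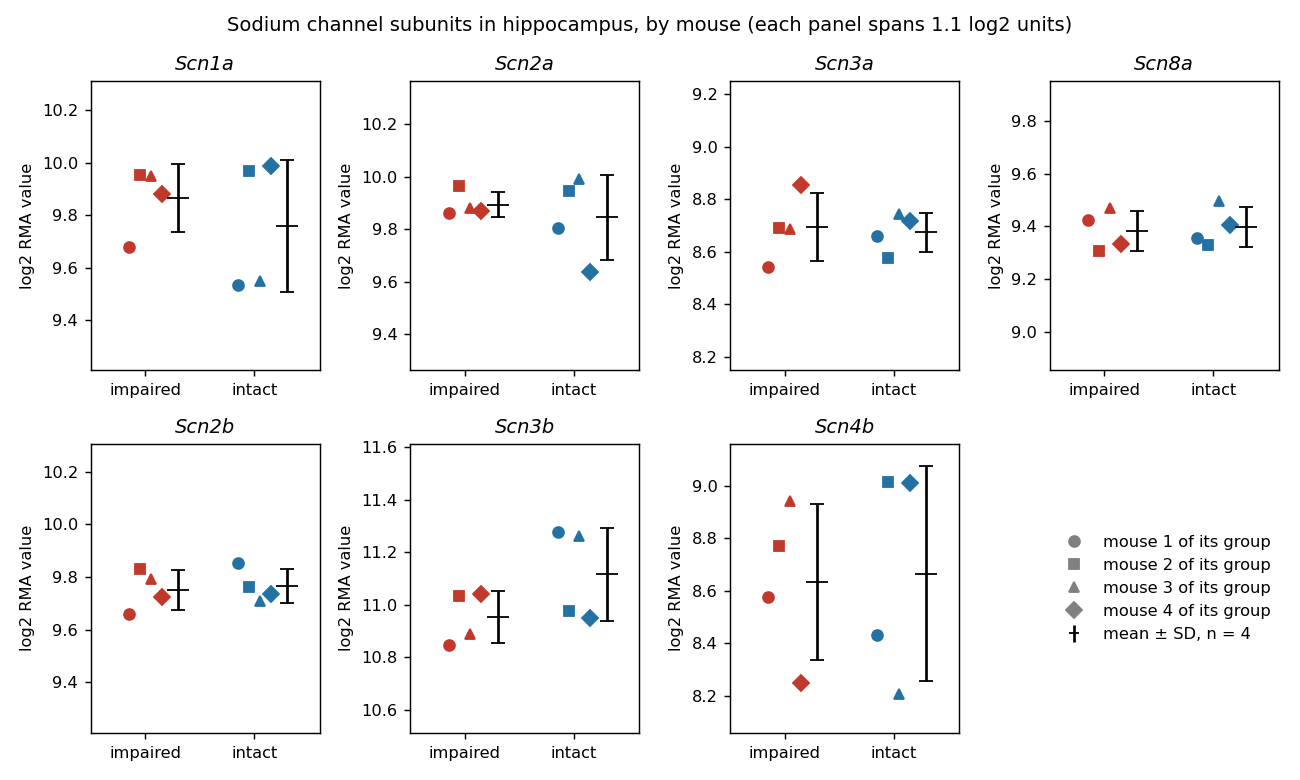
Level of each subunit gene on the log2 RMA scale (vertical axis) in 4 mice with impaired memory (red, left) and 4 with intact memory (blue, right), with mean ± SD (n = 4) in black; every panel spans the same height. The groups overlap in every panel, Scn2b and Scn8a lie within a narrow band, and Scn4b runs from 8.21 to 9.01.

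Scn1a, whose loss of 1 copy causes Dravet syndrome in humans, stood at 9.68, 9.95, 9.95 and 9.88 in impaired mice 1 to 4, against 9.53, 9.97, 9.55 and 9.99 in intact mice 1 to 4. The impaired values all fell inside the intact range, and the low values were those of impaired mouse 1 and of intact mice 1 and 3. The means were 9.86 ± 0.13 in impaired mice and 9.76 ± 0.25 in intact mice (SD, n = 4 each). The 95% interval of this difference was -0.17 to 0.38 (limma, adjusted p = 0.963), and an exact permutation test of the means gave p = 0.429.

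Scn2a, the alpha subunit that dominates excitatory axons early in life and remains in unmyelinated fibres, stood at 9.86, 9.96, 9.88 and 9.87 in impaired mice, against 9.80, 9.95, 9.99 and 9.64 in intact mice. The impaired values lay close together, inside the wider intact range, whose lowest value was that of intact mouse 4. The difference of 0.049 had a standard error of 0.092 and an interval from -0.15 to 0.25 (limma, adjusted p = 0.987).

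Scn3a, the alpha subunit best known from the embryonic brain, stood at 8.54, 8.69, 8.69 and 8.86 in impaired mice, against 8.66, 8.58, 8.75 and 8.72 in intact mice. Here the impaired group held both the lowest and the highest value. The interval of the difference ran from -0.17 to 0.21 (limma, adjusted p = 0.993).

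Scn8a, the alpha subunit of mature axon initial segments and nodes of Ranvier, stood at 9.42, 9.31, 9.47 and 9.33 in impaired mice, against 9.36, 9.33, 9.50 and 9.41 in intact mice. The groups lay on top of each other, and the 8 mice spanned 0.19 in all. The interval of the difference, from -0.19 to 0.16, corresponds to a level in impaired mice of 0.878 to 1.12 times that in intact mice (limma, adjusted p = 0.995).

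Among the beta subunits, Scn2b encodes a protein that is linked to the alpha subunit by a disulfide bond and is cut by the beta-secretase Bace1. It stood at 9.66, 9.83, 9.79 and 9.72 in impaired mice, against 9.85, 9.76, 9.71 and 9.74 in intact mice. The values of both groups interleaved, with impaired mouse 1 lowest and intact mouse 1 highest. The interval ran from -0.19 to 0.16 (limma, adjusted p = 0.995).

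Scn3b, whose protein binds the alpha subunit without a disulfide bond, had the smallest p of the subunits. It stood at 10.85, 11.03, 10.89 and 11.04 in impaired mice, against 11.28, 10.98, 11.26 and 10.95 in intact mice. Intact mice 1 and 3 lay above every other mouse, while intact mice 2 and 4 lay among the impaired values. The means were 10.95 ± 0.10 in impaired mice and 11.12 ± 0.18 in intact mice (SD, n = 4 each), and the difference was -0.16 with an interval from -0.39 to 0.062. Neither limma (unadjusted p = 0.139, adjusted p = 0.961) nor the exact permutation test (p = 0.200) passed its threshold.

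Scn4b encodes a disulfide-linked beta subunit whose cytoplasmic tail can block the open pore and so give rise to resurgent current. It stood at 8.58, 8.77, 8.94 and 8.25 in impaired mice, against 8.43, 9.01, 8.21 and 9.01 in intact mice. Each group held both high and low mice, so that the spread within the groups was far larger than the distance between their means, 8.64 ± 0.30 in impaired mice and 8.67 ± 0.41 in intact mice (SD, n = 4 each). The interval of the difference ran from -0.47 to 0.41 (limma, adjusted p = 0.995), the widest of the 7 genes.

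**Figure D2:**
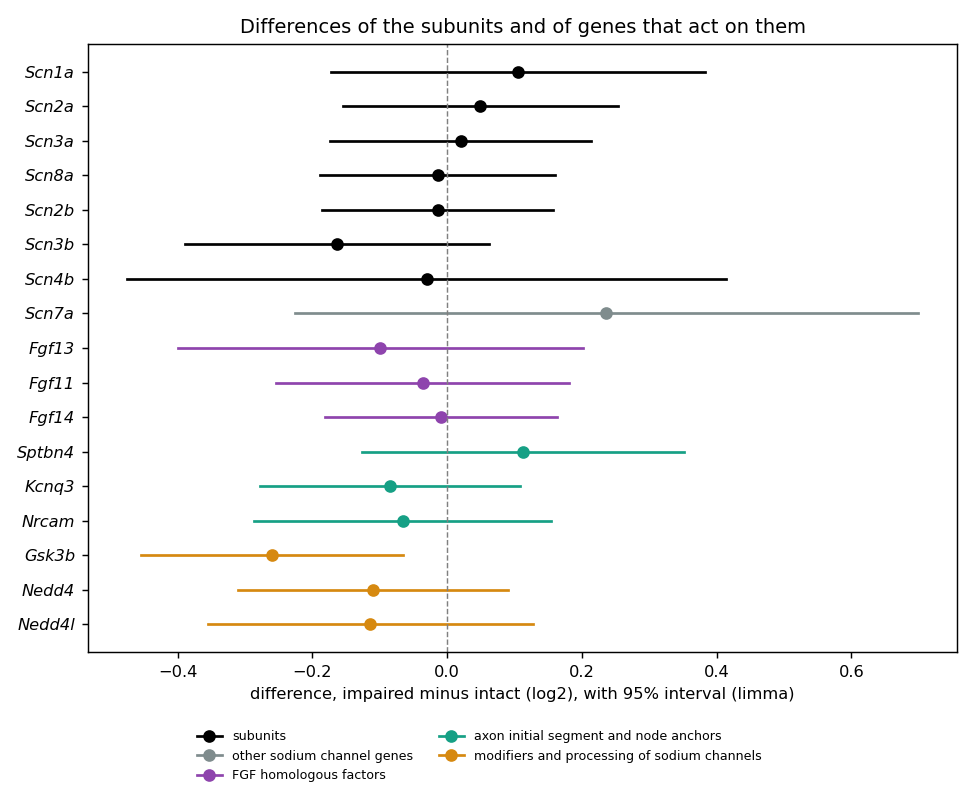
Difference of each gene, impaired minus intact on the log2 scale (horizontal axis), as a point with its 95% interval from limma, for the 7 subunits (black) and for Scn7a (grey) and named genes of the sodium channel's partners (colours). The intervals of all 7 subunits include 0, that of Scn8a is narrow and that of Scn4b wide, and the interval of Gsk3b, from -0.45 to -0.066, lies below 0.

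The subunits differed in how much they varied from mouse to mouse. Ordered by their SD over the 8 mice among the 14628 genes tested, Scn2b and Scn8a stood at percentiles of 3.60 and 4.92, Scn3a at 16.9, Scn2a at 26.1, Scn3b at 53.7, Scn1a at 69.9 and Scn4b at 96.4. The level of Scn4b spanned 1.75-fold over the 8 mice, against 1.37-fold for Scn1a, 1.35-fold for Scn3b and 1.14-fold for Scn2b and Scn8a. In the RefSeq gene order Scn3a and Scn2a are neighbours on chromosome 2, with 3 protein-coding genes between them and Scn1a, Scn8a lies on chromosome 15, and Scn3b lies on chromosome 9 with 61 genes between it and Scn2b. Scn2b and Scn4b are neighbours with 0 protein-coding genes between them, and their probe sets had SDs of 0.065 and 0.33 over the same mice.

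Among the pairs of subunits, Scn1a and Scn4b had the highest correlation, which did not pass after adjustment. Both were high in impaired mice 2 and 3 and in intact mice 2 and 4, and both were low in intact mice 1 and 3. Over the 8 mice Pearson's r was 0.75 (exact permutation p = 0.0488) and Spearman's rho 0.83 (exact permutation p = 0.0154). After adjustment over the 21 pairs of subunits neither passed (adjusted p = 0.679 and 0.323), and r was 0.57 without intact mice 1 and 3, the 2 mice farthest from the median of Scn1a. Taken as deviations from the mean of each mouse's own memory group, r was 0.80, with 0.37 among the 4 impaired mice and 0.97 among the 4 intact mice.

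Scn3b had negative correlations with both, with r of -0.67 against Scn1a and -0.64 against Scn4b (exact permutation p = 0.0762 and 0.0970, adjusted p = 0.679 for each) and rho of -0.50 and -0.60 (exact permutation p = 0.216 and 0.132, adjusted p = 0.936 for each). The relation of Scn3b to Scn1a rested on intact mice 1 and 3, since r was 0.53 without them, and that to Scn4b was -0.27 without them. The other 18 pairs had r between -0.47 and 0.38, and of all 21 pairs 0 passed an adjusted p of 0.05.

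**Figure D3:**
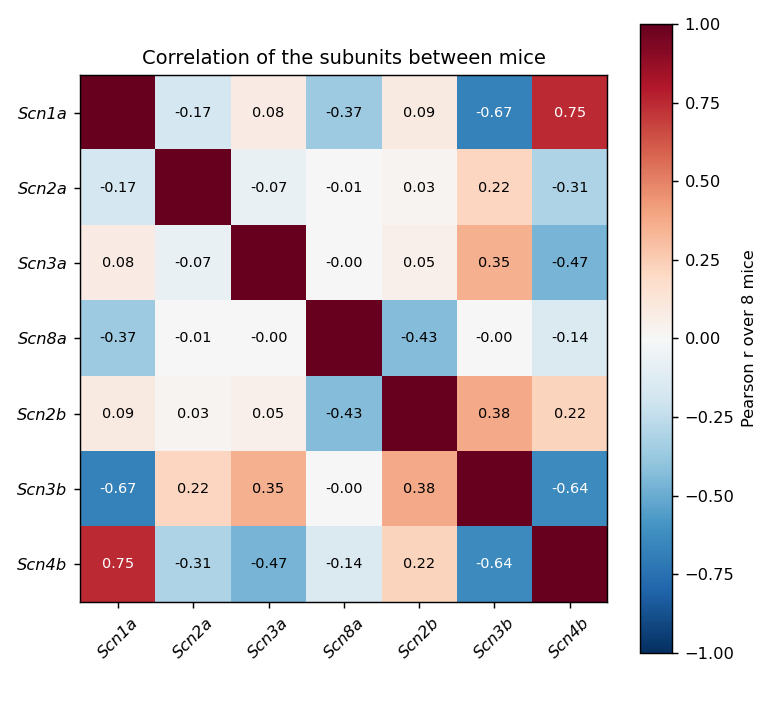
Pearson's r over the 8 mice for each pair of subunit genes (colour scale from -1 to 1). Scn1a and Scn4b have r of 0.75 and Scn3b stands at -0.67 and -0.64 against them, while the remaining pairs lie between -0.47 and 0.38.

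The promoters of Scn4b, the subunit that varied most between mice, of Scn2b, which lies beside it and varied least, and of Scn1a, the next most variable, are shown as a description of how unlike these genes' starts are. The windows are those of RefSeq on GRCm38.p6, 250 bases before to 50 after the start, and 5 of the 7 subunits were matched. Capitals mark AGGTCA, the core that nuclear receptors bind, which was searched on both strands.
Scn1a, minus strand of chr2:66440788-66441087: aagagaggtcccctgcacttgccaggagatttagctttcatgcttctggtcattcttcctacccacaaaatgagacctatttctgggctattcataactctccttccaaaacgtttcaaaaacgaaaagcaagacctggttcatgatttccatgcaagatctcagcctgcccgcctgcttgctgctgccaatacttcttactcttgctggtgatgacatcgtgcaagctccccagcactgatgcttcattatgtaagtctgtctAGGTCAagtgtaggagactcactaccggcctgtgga
Scn4b, plus strand of chr9:45138374-45138673: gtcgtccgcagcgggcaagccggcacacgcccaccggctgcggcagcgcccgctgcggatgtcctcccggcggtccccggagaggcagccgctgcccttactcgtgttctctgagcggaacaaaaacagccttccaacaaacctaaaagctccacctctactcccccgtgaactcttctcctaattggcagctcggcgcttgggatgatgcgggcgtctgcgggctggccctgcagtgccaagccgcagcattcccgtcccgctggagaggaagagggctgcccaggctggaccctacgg
Scn2b, plus strand of chr9:45117626-45117925: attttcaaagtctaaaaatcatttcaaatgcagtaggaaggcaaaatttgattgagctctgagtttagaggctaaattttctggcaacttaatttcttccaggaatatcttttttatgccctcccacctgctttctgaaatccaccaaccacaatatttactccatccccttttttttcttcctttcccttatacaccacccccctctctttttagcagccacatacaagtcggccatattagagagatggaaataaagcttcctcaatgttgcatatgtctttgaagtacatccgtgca

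The 3 windows were unlike in base composition. That of Scn4b had 66.3% G and C and 26 CpG dinucleotides, that of Scn1a 47.3% and 5, and that of Scn2b 38.3% and 2, against medians of 52.7% and 7 over 32851 windows of the same length. AGGTCA occurred once in the Scn1a window, 14 bases downstream of the start, and not in the windows of Scn4b and Scn2b, while 16.3% of all windows held it. The Scn8a window with 53.3% G and C, not shown, also held it, at position -171 from the start. The GC box GGGCGG had 0 matches on both strands of these 3 windows, against 35.7% of all windows with one. The CRE core TGACG, in 20.8% of all windows, and the TATA box TATAAA, in 13.6%, also had 0 matches on both strands here. The E-box CANNTG had 2 matches in the Scn1a window, 0 in that of Scn4b and 3 in that of Scn2b, and 72.3% of all windows hold it.

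Marker genes of other tissue and cell types were read on the same arrays. In such bulk samples, fewer cells of a type and less RNA per cell cannot be told apart. Of the 5 hippocampal markers listed, Neurod6, Neurod2, Prox1 and Wfs1 were tested, and all 4 had means above the intron level of 7.92. Thalamus markers were present as well, with 10 of 12 above that level, and their mean deviation differed widely between mice.

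The thalamus score, the mean deviation of the 12 markers from their means over all mice, was -0.19, 0.45, 0.44 and -0.014 in impaired mice 1 to 4, against -0.22, 0.46, -1.41 and 0.48 in intact mice 1 to 4. The range was thus -0.19 to 0.45 in impaired mice and -1.41 to 0.48 in intact mice, with intact mouse 3 far below the others. All 12 markers had higher means in impaired mice, and the score did not separate the groups (exact permutation p = 0.629). All 12 also had their lowest value in intact mouse 3, so this count leans on that mouse. The 4 mice with the highest scores, impaired mice 2 and 3 and intact mice 2 and 4, lay close together between 0.44 and 0.48 and were those with the highest Scn1a and Scn4b.

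Against the thalamus score, Scn1a had r of 0.84 and rho of 0.98 (exact permutation p = 0.00122 and 0.000397), with adjusted p of 0.0553 and 0.0181 over the 91 relations between 7 subunits and 13 marker lists. Without intact mice 1 and 3, the mice farthest from the median score, r was 0.92. Scn4b had r of 0.81 and rho of 0.88 against the same score (exact permutation p = 0.00352 and 0.00724, adjusted p = 0.0813 and 0.132), and r was 0.82 without these 2 mice. Taken as deviations from the mean of each memory group, r was 0.83 for Scn1a and 0.86 for Scn4b.

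The score over 4 tested markers of CA1 pyramidal neurons (Wfs1, Fibcd1, Pou3f1 and Man1a) had negative correlations with both genes, of which that with Scn1a passed. This score ranged from -0.090 to 0.071 in impaired mice and from -0.32 to 0.33 in intact mice. Scn1a had r of -0.83 and rho of -0.98 against it (exact permutation p = 0.000322 and 0.000397, adjusted p = 0.0293 and 0.0181), and r was -0.89 without intact mice 3 and 4, the mice farthest from the median score. Scn4b had r of -0.84 and rho of -0.88 (exact permutation p = 0.00357 and 0.00724, adjusted p = 0.0813 and 0.132), and r was -0.83 without the same mice. Of the 91 relations, 1 passed an adjusted p of 0.05 by Pearson's r, that of Scn1a with the CA1 markers. By rho those of Scn1a with the CA1 and the thalamus markers passed. The marker lists were chosen with earlier results of these data known, and the adjustment does not allow for that choice. The CA1 score ordered the mice in exactly the reverse of the thalamus score, so these rho values are 1 result with the sign turned. This applies to rho of Scn4b with these scores as well. The call by Pearson's r was lost with Scn1a and the CA1 score as deviations from the mean of each memory group. There r was -0.86 (permutation over all 8 mice, adjusted p = 0.0609), and 0 of the 91 relations passed. Such deviations sum to 0 within each group, so this permutation is only approximate, and r itself was no weaker. Without intact mouse 3, r of Scn1a with the CA1 score was -0.75. The single CA1 markers differed. Fibcd1 and Man1a were highest in impaired mouse 1 and intact mice 1 and 3, the mice with the lowest Scn1a. Pou3f1 was highest in intact mouse 3 (8.64). Wfs1 was highest in impaired mouse 3 (9.94) and lowest in intact mouse 4 (9.17). Their single relations to Scn1a were not tested. Wfs1 stands in both the CA1 and the hippocampal list. The part of thalamic and CA1 tissue in the levels of Scn1a and Scn4b was not tested.

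**Figure D4:**
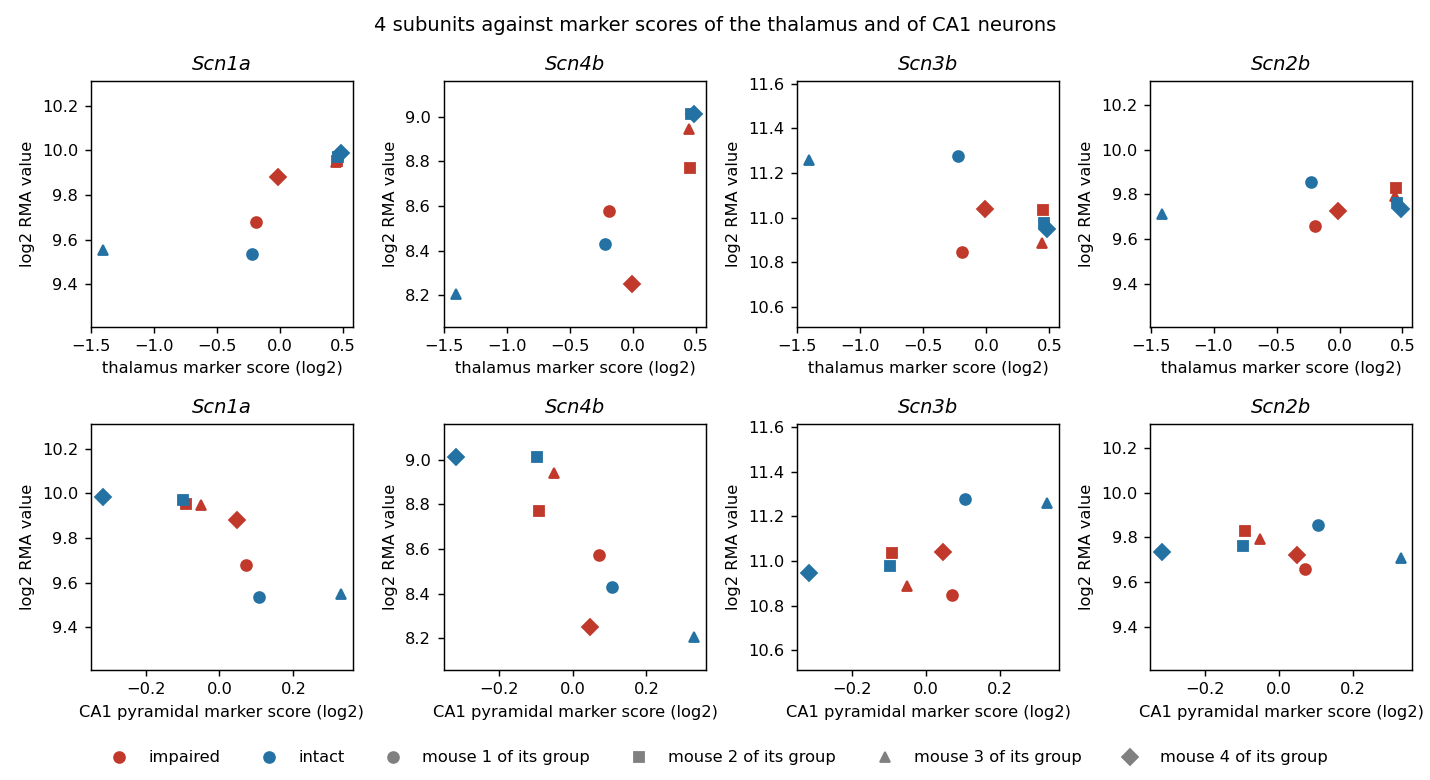
Log2 RMA level of Scn1a, Scn4b, Scn3b and Scn2b (vertical axes, each spanning the same height) against the mean deviation of thalamus markers (upper row) and CA1 pyramidal markers (lower row) on the log2 scale, with 1 point per mouse, impaired in red and intact in blue. Scn1a and Scn4b are higher in mice with a higher thalamus score (r = 0.84 and 0.81) and lower in mice with a higher CA1 score (r = -0.83 and -0.84), while Scn2b lies in a flat band.

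With the thalamus score as a covariate, the differences of Scn1a and Scn4b, impaired minus intact, were 0.020 and -0.19 (limma, adjusted p = 0.984 and 0.899), against 0.10 and -0.030 without it. With thalamus and choroid plexus scores together, Scn4b differed by -0.33 (limma, unadjusted p = 0.0250, adjusted p = 0.999), and Scn1a by -0.051. No other alternative limma fit had a subunit under an unadjusted p of 0.05. In this fit 643 of the 14628 genes tested lay under that level. The choroid plexus score, over 11 of 12 listed markers tested, ranged from -0.98 to 0.26 in impaired mice and from -0.99 to 0.96 in intact mice (exact permutation p = 0.343), and all 11 had lower means in impaired mice.

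Because Scn1a is the alpha subunit of fast-spiking interneurons, markers of GABAergic interneurons were set beside it. Their score, over 9 markers with Pvalb among them, ranged from -0.14 to 0.10 in impaired mice and from -0.11 to 0.15 in intact mice, and with it as a covariate Scn1a differed by 0.11 (limma, adjusted p = 0.961). The whole score had r of 0.43 with Scn1a and 0.46 with Scn4b, and rho of 0.50 and 0.52 (exact permutation p from 0.197 to 0.271, adjusted p = 0.689 for each r and 0.635 for each rho). Pvalb, the calcium-binding protein of fast-spiking cells, was looked at singly after its values were seen. It stood at 8.94, 8.83, 8.95 and 8.37 in impaired mice, against 8.47, 8.99, 8.20 and 9.04 in intact mice, and high and low mice were largely those of Scn4b. Over the 8 mice Pvalb had r of 0.93 and rho of 0.95 with Scn4b, with r of 0.81 without impaired mouse 4 and intact mouse 3, and r of 0.67 with Scn1a. Pvalb and Scn4b were high in impaired mouse 3 and low in intact mouse 3, and the other interneuron markers were divided in these mice. Vip stood at 6.68 in impaired mouse 3 and 7.88 in intact mouse 3, Lhx6 at 6.83 and 7.42 and Sst at 12.50 and 12.93. Gad2 (9.17 and 8.83), Slc32a1 (9.30 and 9.14), Kcnc1 (10.33 and 9.98) and Kcnc2 (9.53 and 9.21) were higher in impaired mouse 3, as Pvalb was. Gad1 was nearly level (9.84 and 9.83). The thalamus marker Tcf7l2 had r of 0.79 with Scn4b and 0.87 with Scn1a, also chosen after the values were seen. These single genes are given as a description with no test.

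Of the 91 relations 10 had an unadjusted p under 0.05 by Pearson's r, and the 6 that remain had adjusted p of 0.333 or more. Oligodendrocyte markers had r of 0.78 and rho of 0.88 with Scn4b (exact permutation p = 0.0256 and 0.00724, adjusted p = 0.333 and 0.132), and r was 0.85 without impaired mouse 1 and intact mouse 3. With Scn1a they had r of 0.74 and rho of 0.69 (exact permutation p = 0.0448 and 0.0694, adjusted p = 0.442 and 0.631), and r was 0.50 without the same mice and 0.87 as deviations from the group means. Their score over 6 of 7 listed markers, all with lower means in impaired mice, ranged from -0.33 to 0.16 in impaired mice and from -0.36 to 0.30 in intact mice, and their part in the levels of Scn4b and Scn1a was not tested. Astrocyte markers had r of 0.72 and rho of 0.50 with Scn1a (exact permutation p = 0.0486 and 0.216, adjusted p = 0.442 and 0.635), and r was 0.52 without impaired mouse 1 and intact mouse 3. The astrocyte score over 6 markers, 4 of them with higher means in impaired mice, ranged from -0.13 to 0.11 in impaired mice and from -0.11 to 0.041 in intact mice. The 4 hippocampal markers had r of -0.81 and rho of -0.83 with Scn4b (exact permutation p = 0.0226 and 0.0154, adjusted p = 0.333 and 0.233), and r was -0.65 without intact mice 3 and 4. Their score ranged from -0.12 to 0.22 in impaired mice and from -0.25 to 0.23 in intact mice.

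Scn3a and the dentate granule markers correlated without passing the adjustment (r = 0.79, exact permutation p = 0.0212, adjusted p = 0.333; rho = 0.74, exact permutation p = 0.0458, adjusted p = 0.521). The dentate score over 4 tested markers ranged from -0.31 to 0.36 in impaired mice and from -0.16 to 0.12 in intact mice, r was 0.96 without impaired mice 2 and 4, and the part of dentate tissue in the level of Scn3a was not tested. The same held for Scn2a and the pan-neuronal markers (r = 0.74, exact permutation p = 0.0413, adjusted p = 0.442; rho = 0.55, exact permutation p = 0.171, adjusted p = 0.635), but r was 0.40 without impaired mouse 4 and intact mouse 4, so that this relation rested on those mice. Within the pan-neuronal score Map2 varied widely, at 9.93 and 9.87 in intact mice 2 and 4 against 11.06 to 11.61 in the others. The relation without Map2 was not tested.

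The genes whose values were most like each subunit over the 8 mice, by Pearson's r, were named as a description with no test. For Scn1a they were Shisal1, Txnrd1 and Arhgap24 (r = 0.97 each), and for Scn4b Kctd9, Tmem88b and Unc13c (r = 0.97 each). Tmem88b stood at 9.68, 9.65, 9.94 and 9.40 in impaired mice, against 9.41, 10.04, 9.24 and 10.01 in intact mice, the same 3 mice being highest as for Scn4b. For Scn3b the nearest were Grm5, a metabotropic glutamate receptor (r = 0.98), the cation channel Trpc5 (r = 0.97) and the cullin Cul1 (r = 0.97). Grm5 ranged from 9.76 to 10.04 in impaired mice, against values of 10.28, 9.96, 10.26 and 9.94 in intact mice, with intact mice 1 and 3 highest as for Scn3b. For Scn2a they were Rabl6, Taok3 and Nuak1 (r = 0.96, 0.95 and 0.94), for Scn3a Cd160, Sart1 and Mical1 (r = 0.95, 0.94 and 0.94), for Scn8a Tmem52, Dnajc16 and Mier2 (r = 0.95, 0.95 and 0.94) and for Scn2b St6galnac3, Pbrm1 and Trappc13 (r = 0.95, 0.94 and 0.93).

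The 3 other sodium channel genes that were measured were near background. Scn7a, a sodium sensor of glia that is not opened by voltage alone, stood at 5.70, 5.56, 5.91 and 5.20 in impaired mice, against 4.74, 5.34, 5.61 and 5.73 in intact mice. It lay below the intron level of 7.92 on every array, and its difference was 0.24 with an interval from -0.23 to 0.70 (limma, adjusted p = 0.961). Scn10a and Scn11a, subunits of sensory neurons, had values of 4.15 to 4.32 and 3.00 to 4.49 in impaired mice, against 3.82 to 4.66 and 3.68 to 4.67 in intact mice, under the level of 5.33 needed for a test.

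Of the genes that act on the channel, 0 passed an adjusted p of 0.05. The 4 FGF homologous factors, cytosolic proteins that bind the C terminus of the alpha subunit, had 1 member higher and 3 lower in impaired mice, with a median difference of -0.023 and a range from -0.099 (Fgf13) to 0.011 (Fgf12). Fgf13 averaged 8.80 in impaired mice and 8.90 in intact mice, with overlapping groups and a standard error of the difference of 0.14. Fgf11 and Fgf14 differed by -0.036 and -0.0089.

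The anchors of the axon initial segment and the node, where sodium channels gather, were tested for 13 of 14 listed genes. Of these, 5 had a higher and 8 a lower mean in impaired mice, with a median difference of -0.0089 and 0 at an unadjusted p under 0.05. The genes with the smallest p were Sptbn4, the beta-IV spectrin of the initial segment (0.11, standard error 0.11), the potassium channel Kcnq3 (-0.084, standard error 0.087) and the adhesion molecule Nrcam (-0.066, standard error 0.10). Ank3, the ankyrin G scaffold that holds the channels in place, had means of 10.30 in impaired mice and 10.25 in intact mice.

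Of 20 listed enzymes and regulators that modify or cut the subunits, 15 were tested, and the others were not analysed here. Of these 15, 12 had lower and 3 had higher means in impaired mice, while 47.1% of all genes tested had higher means there. The median difference was -0.055, and 1 gene had an unadjusted limma p under 0.05 (lower, as were 2.52% of the genes tested). That gene was Gsk3b, a kinase that phosphorylates Scn2a and also tau, at 11.27, 11.41, 11.28 and 11.56 in impaired mice, against 11.61, 11.72, 11.57 and 11.65 in intact mice. All 4 impaired values lay below all 4 intact values, a difference of -0.26 ± 0.088 (SE; limma, unadjusted p = 0.0134, adjusted p = 0.961). The groups also did not overlap for 2.58% of all genes tested. The ubiquitin ligases Nedd4 and Nedd4l, which remove channels from the membrane, differed by -0.11 each, with standard errors of 0.091 and 0.11 and overlapping groups. Bace1, the secretase that cuts the beta subunits, had means of 8.73 in impaired mice and 8.76 in intact mice, a difference of -0.027 (standard error 0.078).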

How the data were processed

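Hippocampal RNA of 8 mice was read on 1-colour Affymetrix arrays, 1 per mouse, from 1 ng of total RNA with the WT Pico kit, per the labels' protocols. The deposited values are log2 expression that the authors made with RMA, per the submitters' processing notes; the sources used here name neither a version nor a genome build. RMA makes arrays comparable and compresses differences of dim genes. Of 22206 target probe sets 19572 had 1 gene symbol, 0 several and 2634 none, and all 19572 matched RefSeq (GRCm38.p6) by Entrez identifier. The brightest probe set per gene was kept and the 25% of the 19505 genes with the lowest mean were left out. Array medians over the genes tested were 7.75 to 7.79, and arrays correlated at 0.979 to 0.989. Precision is limited by having 8 arrays, with a median standard error of 0.105.

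Impaired minus intact was tested with limma 3.58.1 in R 4.3.3 (two-sided, Benjamini-Hochberg over 14628 genes, threshold 0.05), checked on simulated data. Exact permutation tests were two-sided, over 70 relabellings of the groups (smallest possible p 0.0286) or all pairings of 8 mice for correlations. The 7 genes and the lists were chosen with earlier results of these data known. Named were the 7 subunits, the other sodium channel genes, the 3 genes with the smallest p of each further list and the 3 genes most like each subunit by Pearson's r, leaving out symbols of predicted genes, chemosensory receptors and small RNAs; Fgf12, Ank3, Bace1, Pvalb and Tcf7l2 were added after their values were seen. Alternatives were other filters, another summary of probe sets, normalizations, a trend with a robust prior, array weights, marker scores as covariates, the replicate number as a block and leaving out each mouse. Batches could not be examined, since the labels used here give none. Nothing says how the mice were housed or bred, so the p-values take the 8 mice as independent, which could not be checked. Some listed genes are not reported here.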

Additional observations from a re-analysis of the deposited data

How the results depend on the processing

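Under all 20 alternative limma fits 0 of the 7 subunits passed an adjusted p of 0.05, with adjusted p from 0.793 (Scn3b) to 1.00, and the direction of Scn3b was kept in all of them, from -0.22 to -0.095. Other filters, the other summary of probe sets, the trend with a robust prior and the replicate block cannot change a subunit's difference. Scn3b stayed at -0.16 there, so only the remaining fits could have turned its direction. Over all genes 1 gene passed with a trend and a robust prior (at an unadjusted p under 0.05, 642 genes), against 0 otherwise. Signs turned in the other 6 genes, of which Scn1a had the largest difference in the main fit (0.10). Scn4b ran from -0.33 with thalamus and choroid plexus scores as covariates to 0.098 without impaired mouse 4. Scn1a was -0.051 with thalamus and choroid plexus scores as covariates, Scn8a 0.0069 with the thalamus score, and Scn2b 0.0079 after quantile normalization. Leaving out each mouse gave 0.029 to 0.18 for Scn1a, -0.020 to 0.098 for Scn2a, -0.034 to 0.070 for Scn3a, -0.042 to 0.019 for Scn8a, -0.040 to 0.017 for Scn2b, -0.22 to -0.11 for Scn3b and -0.18 to 0.098 for Scn4b. The cause was not tested. The labels do not say whether the replicate number pairs mice. Deviations of same-numbered mice correlated at -0.10 to 0.033, which cannot decide it, since a pairing need not show over all genes. With the number as a block the differences were unchanged by design (Scn3b -0.16, limma adjusted p = 0.986), and 0 subunits passed. The interneuron score as a covariate was chosen after seeing the data.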
